A study of Mus musculus with 6 samples.

Results

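Aminoacyl-tRNA synthetases join each amino acid to its transfer RNA, the charging step that supplies the ribosome. Separate nuclear genes serve the cytosol and the mitochondria for most amino acids, while Gars and Kars make both forms from a single gene. In the cytosol several synthetases sit in a large complex held together by the scaffolds Aimp1 and Aimp2, and Eprs charges both glutamate and proline. Many of the cytosolic genes, though not all, are among the known targets of ATF4, the transcription factor of the integrated stress response. Inherited defects of several synthetases of either compartment cause leukodystrophy, a disease of brain white matter. The 38 genes described here were chosen by name among the 39017 genes of the count table, and all 38 were found. They comprise 20 synthetase chains of the cytosol, the 2 scaffolds and 16 mitochondrial enzymes. Aimp2 ends in the digit that marks mitochondrial enzymes but is a cytosolic scaffold and was counted as one.

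The libraries hold RNA pulled down with tagged ribosomes out of the corpus callosum of C57BL/6 mice that carry RiboTag and Olig1-Cre, in which cells with Cre activity put an HA tag on the ribosomal protein RPL22. There are 3 control libraries (vehicle, replicates 24, 26 and 27). Another 3 come from animals whose diet held 0.2% cuprizone, a copper chelator toxic to oligodendrocytes (replicates 30, 31 and 32). The labels describe young females of 8 to 10 weeks, a diet of 6 or 9 weeks and 3 weeks of recovery, without saying which applied to these cuprizone libraries, and do not say whether a library pooled animals. Olig1-Cre is active from the progenitor stage, so that the tag is not limited to myelinating cells. The libraries held 18549360 to 22381307 counts. Replicate 32 differed most from its own group: a chi-square of its counts, divided by the degrees of freedom, gave 85.1 against replicate 30 and 101 against replicate 31, where that pair gave 26.6. The summed level of 12 markers of myelinating oligodendrocytes was 61840 to 83506 CPM in vehicle (counts relative to the TMM-scaled library size) and 8080 to 15108 CPM in cuprizone, and all 12 fell. Of 6 progenitor markers 0 passed with edgeR, DESeq2 or voom (1 unadjusted p was under 0.05), and their sum was 813 to 1099 CPM in vehicle and 579 to 1030 CPM in cuprizone. Rpl22, the tagged gene, was at 62.2 to 75.2 CPM in vehicle and 67.7 to 87.3 CPM in cuprizone. Olig1, whose promoter drives Cre, fell by 1.12 and the myelin gene Mbp by 2.62 on the log2 scale (edgeR adjusted p = 0.0334 and 0.0104). In such bulk samples fewer cells of a type and less RNA per cell cannot be told apart.

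Of the 20 cytosolic chains 4 rose in cuprizone, by 1.39-fold to 1.83-fold, at an adjusted p of 0.05 (edgeR's quasi-likelihood test with Benjamini-Hochberg adjustment over the 16569 genes tested) and 0 fell, against a background of 1.87% of all genes higher and 5.7% lower. The 4 were Lars, Eprs, Nars and Cars. DESeq2 called 9 higher, with a background of 5.2% higher and 8.45% lower, and limma-voom 4, with 1.77% and 5.87%, and both called 0 lower. With a library other than cuprizone replicate 32 left out the background fell as well. The 4 became 2 without vehicle replicate 24 (background 0.931% higher, 3.08% lower) or cuprizone replicate 31 (1.63% and 5.44%). They became 1 without vehicle replicate 26 (0.432% and 2.81%) or cuprizone replicate 30 (0.543% and 2.87%). Without vehicle replicate 27 (0.385% and 2.94%) 0 passed, and 6 of the 20 chains were higher at an unadjusted p under 0.05, where 6.43% of all genes were. Without cuprizone replicate 32 (2.77% and 5.75%) 4 passed. All 38 members passed the filter on low counts. The median log2 fold change was 0.29 for the cytosolic chains, 0.02 for the mitochondrial enzymes and 0.02 for all genes tested. Among the cytosolic chains 16 had a positive and 4 a negative fold change, where 52.6% of all genes had a positive one, and for 15 every cuprizone library lay above every vehicle library, against a background of 12.6% of all genes. The summed level of the 20 chains was 1379, 1405 and 1348 CPM in vehicle replicates 24, 26 and 27 and 1741, 1853 and 1666 CPM in cuprizone replicates 30, 31 and 32, a mean that was 27.3% higher. The groups did not overlap, and replicate 32 was the lowest of the cuprizone libraries.

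**Figure D1:**
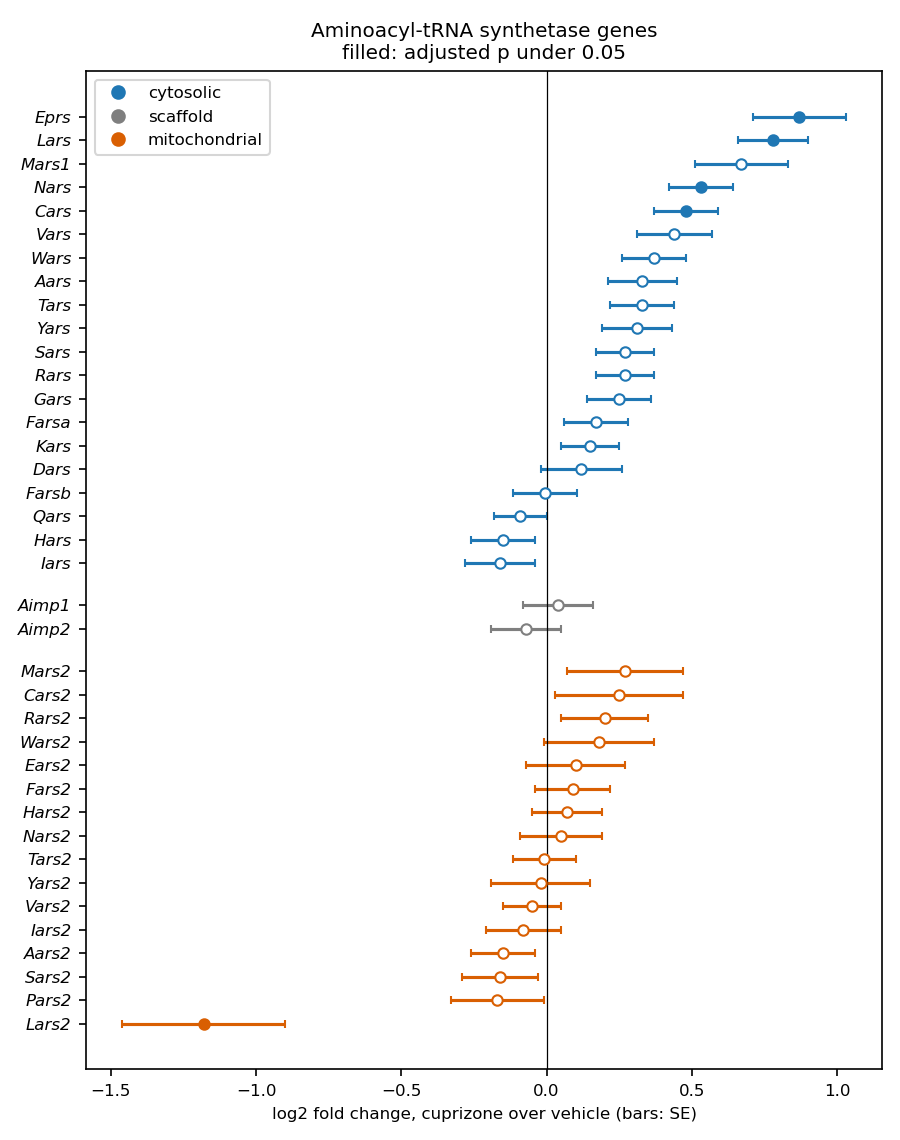
Log2 fold change of cuprizone over vehicle for the 38 genes, with the standard error as a bar (n = 3 libraries per group). Filled points passed the adjusted threshold of 0.05. Most cytosolic chains (blue) lie right of 0, with Eprs at 0.87 and Lars at 0.78, whereas mitochondrial enzymes (orange) lie around 0 except Lars2 at -1.18.

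Lars, the leucyl-tRNA synthetase of the cytosol, which also senses leucine for the growth kinase mTORC1, had the smallest adjusted p of the members. The gene spans 42202298 to 42262194 on chromosome 18 of GRCm38 (ENSMUSG00000024493). It stood at 33.6, 33.3 and 33.4 CPM in the vehicle libraries and at 59.0, 63.3 and 50.5 CPM in the cuprizone libraries. The vehicle libraries were nearly equal and all cuprizone libraries were well above them. The log2 fold change was 0.78 ± 0.12 (SE), or 1.72-fold (edgeR adjusted p = 0.00916). Its adjusted p was 0.0543 without vehicle replicate 27 and stayed under the threshold in the other 12 alternative analyses.

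Eprs, the bifunctional glutamyl-prolyl-tRNA synthetase (ENSMUSG00000026615, chromosome 1, 185363044 to 185428360), showed the largest rise of the cytosolic chains. Its level was 130, 103 and 110 CPM in vehicle and 205, 245 and 176 CPM in cuprizone. The highest vehicle library, replicate 24, was still below the lowest cuprizone library, replicate 32. The log2 fold change was 0.87 ± 0.16, or 1.83-fold (edgeR adjusted p = 0.0222). The adjusted p was 0.103 without vehicle replicate 26, 0.118 without vehicle replicate 27 and 0.0756 without cuprizone replicate 30.

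Nars, which charges asparagine (ENSMUSG00000024587, chromosome 18, 64499647 to 64516652), went from 102, 115 and 105 CPM to 149, 159 and 156 CPM, a log2 fold change of 0.53 ± 0.11 (edgeR adjusted p = 0.0305). The cuprizone libraries were close to each other here, replicate 32 included. Its adjusted p was 0.0657 to 0.155 when any library other than cuprizone replicate 32 was left out. Cars, which charges cysteine (ENSMUSG00000010755, chromosome 7, 143557230 to 143600090), went from 19.3, 20.6 and 18.3 CPM to 25.7, 27.9 and 27.7 CPM, a log2 fold change of 0.48 ± 0.11 (edgeR adjusted p = 0.041). The groups did not overlap. Its adjusted p was 0.0566 to 0.184 with any single library left out and 0.0548 with no filter on low counts.

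Mars1, the methionyl-tRNA synthetase, missed the threshold narrowly. Its level was 35.0, 39.4 and 35.2 CPM in vehicle and 63.5, 65.3 and 45.3 CPM in cuprizone. Replicate 32 lay between the vehicle libraries and the other cuprizone libraries. The log2 fold change was 0.67 ± 0.16 (edgeR adjusted p = 0.0522), and it was 0.82 with an adjusted p of 0.00655 without replicate 32. It also passed with RLE or upper-quartile scaling, with either other filter on low counts and with DESeq2. Mars1 and Ddit3, a stress-induced transcription factor that itself rose (log2 fold change 0.91 ± 0.18, adjusted p = 0.024), overlap on opposite strands by 68 exonic bases. No source at hand says whether the counting used strand, so reads of that overlap may have gone to either gene.

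**Figure D2:**
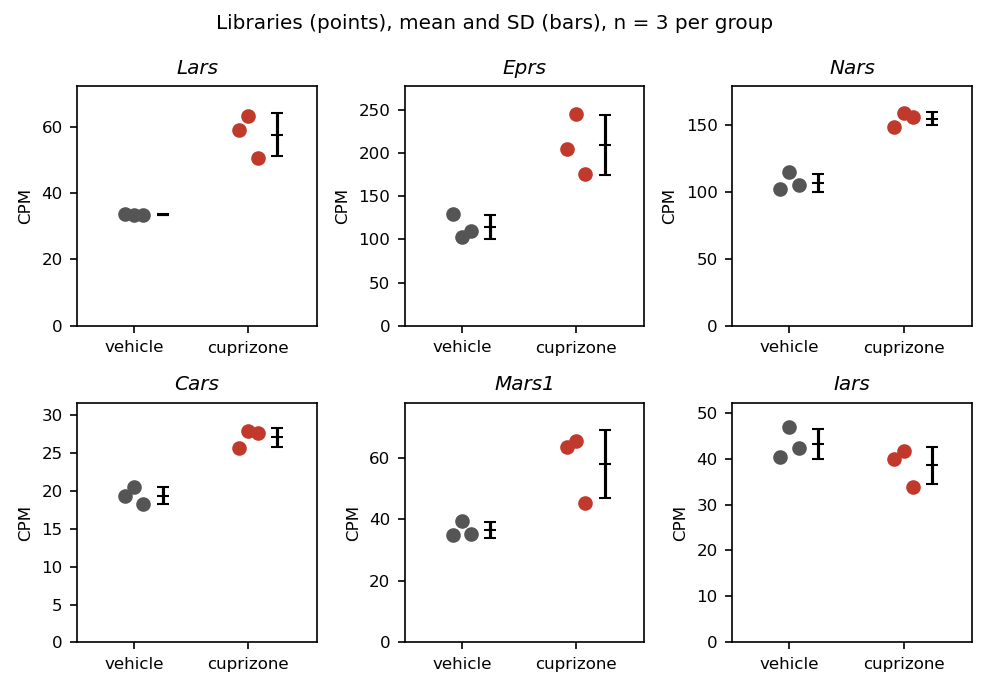
Level in CPM of 5 cytosolic synthetase genes that were highest by fold change, and of Iars for contrast, in each vehicle and cuprizone library (points), with the group mean and SD beside them (n = 3). In the first 5 panels all cuprizone libraries lie above all vehicle libraries, and in the Iars panel the groups overlap.

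A further 8 cytosolic chains had an unadjusted p under 0.05 with edgeR, all with higher levels, which makes 12 of 20 against a background of 10.5% of all genes. They were Vars, Wars, Aars, Tars, Yars, Sars and Rars together with Mars1, with log2 fold changes of 0.27 to 0.67. Vars, for valine, went from 38.1 to 48.5 CPM in vehicle to 52.0 to 63.1 CPM in cuprizone (0.44 ± 0.13, adjusted p = 0.106). Wars, for tryptophan, which interferon gamma induces in many cells, was at 113, 111 and 116 CPM in vehicle and 156, 135 and 148 CPM in cuprizone (0.37 ± 0.11, adjusted p = 0.104). Sars, for serine, had the tightest groups of these, with 140 to 142 CPM in vehicle and 169 to 172 CPM in cuprizone (0.27 ± 0.10, adjusted p = 0.168). Each of these 8 genes kept its groups apart. Aars shares 1326 exonic bases with Exosc6 on the same strand, 14.29% of its annotated exon length, and reads there may have been split or dropped.

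The other 8 cytosolic chains had an unadjusted p above 0.05. Gars, for glycine, was at 82.4, 90.4 and 82.8 CPM in vehicle and 106, 104 and 94.2 CPM in cuprizone (log2 fold change 0.25 ± 0.11, unadjusted p = 0.0515, edgeR adjusted p = 0.218). Its groups did not overlap, nor did those of Kars, for lysine (0.15 ± 0.10), and of Farsa, all with cuprizone higher. Iars, for isoleucine, was at 40.4, 46.8 and 42.2 CPM in vehicle and 39.9, 41.6 and 33.8 CPM in cuprizone (log2 fold change -0.16 ± 0.12). Hars, for histidine, had -0.15 ± 0.11 and Qars, for glutamine, -0.09 ± 0.09. Farsa and Farsb, the catalytic and the partner subunit of the phenylalanine enzyme, had 0.17 ± 0.11 and -0.0049 ± 0.11, so the value of Farsb was within its error of 0, and it changed sign under other scalings (0.0057 with RLE, 0.05 with upper-quartile scaling). Dars, for aspartate, had 0.12 ± 0.14, with overlapping groups. With edgeR, DESeq2 and limma-voom alike, 0 of these 8 genes passed, and with edgeR 0 had an unadjusted p under 0.05. The scaffolds Aimp1 and Aimp2 had log2 fold changes of 0.04 ± 0.12 and -0.07 ± 0.12, both with overlapping groups. Aimp2 shares 487 exonic bases with Eif2ak1 on the opposite strand, 29.44% of its exon length.

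The multi-synthetase complex holds 10 of the members, of which 2 rose, Lars and Eprs, where edgeR called 1.87% of all genes higher. Log2 fold changes of the 10 had a median of 0.13 and a range of -0.16 to 0.87. Subunits of the same complex thus spanned the whole range of the cytosolic chains, since Iars, the lowest, and Eprs, the highest, both belong to it. The 9 chains with a class I catalytic fold had a median of 0.37 and the 10 counted as class II, Farsb included, one of 0.21. Of these, 2 and 1 were called higher, against the same 1.87% of all genes. Eprs, the other called gene, joins enzymes of both classes and is in neither count. For the 12 chains widely described as responsive to ATF4 the median was 0.35. All but Iars, so 11, kept their groups apart with cuprizone higher, as did 12.6% of all genes. For the other 8 cytosolic chains the median was 0.13. Of these, 4 kept their groups apart with cuprizone higher and 1, Qars, with cuprizone lower, as did 12.6% and 17.6% of all genes. The 12 chains had a mean log2 level, relative to the vehicle mean, of 0.42, 0.51 and 0.33 in cuprizone replicates 30, 31 and 32, and the other 8 one of 0.10, 0.14 and 0.08. All 4 genes called with edgeR were among the 12. DESeq2 called 8 of the 12 and 1 of the other 8, Vars, against 5.2% of all genes higher. The difference between these lists was not tested, and the 12 were listed with earlier results of these libraries known.

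**Figure D3:**
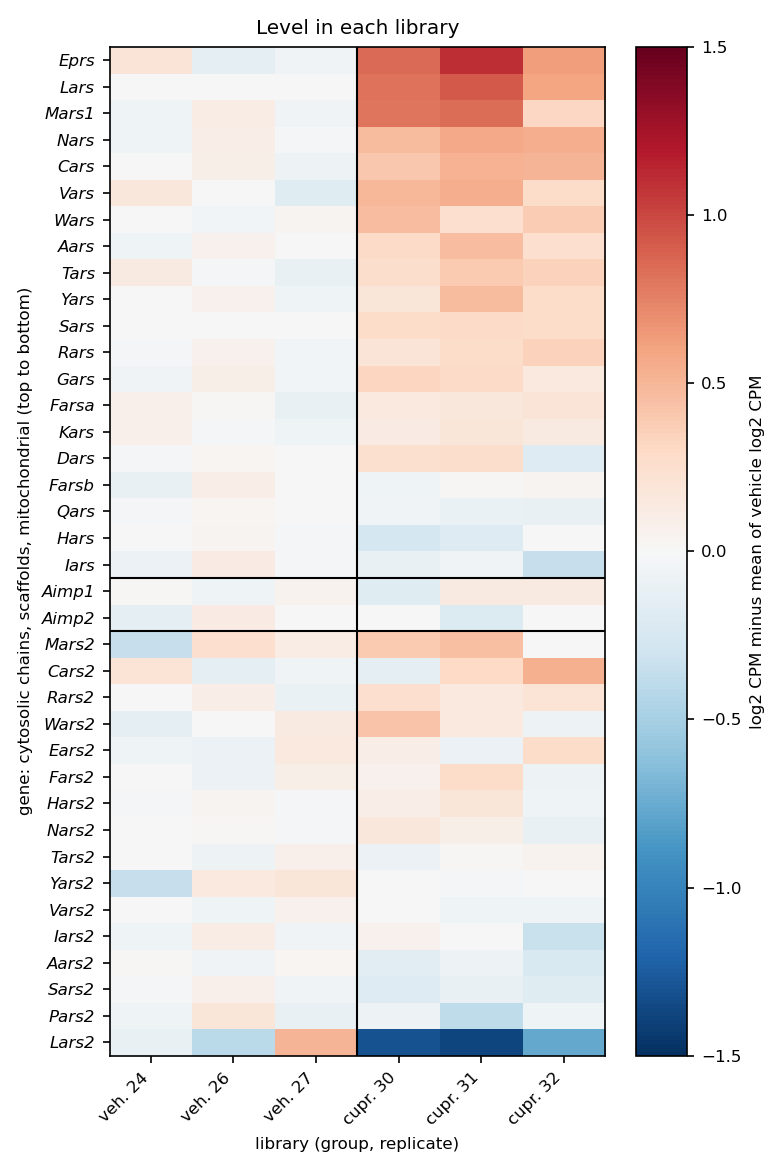
Level of each of the 38 genes in each library, as log2 CPM minus the mean log2 CPM of the 3 vehicle libraries; red is higher and blue lower, and black lines part the cytosolic chains, the scaffolds and the mitochondrial enzymes. Red fills the upper rows of all 3 cuprizone libraries, with paler cells for Mars1 in replicate 32, and the bottom row, Lars2, is blue.

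The ATF4 complex binds a composite element, and its letters TGATGNAA (TTNCATCA on the other strand, N being any base) were searched in RefSeq promoter windows of GRCm38.p6, from 250 bases before to 50 bases after the annotated start. Windows were matched for 29 members, and Cars, Hars, Lars, Nars, Rars, Vars, Wars, Hars2 and Pars2 had none. The motif was found in 5 of 13 cytosolic promoters and in none of the 15 windows of 14 mitochondrial genes, against 3.97% of all 32851 promoters. It was also in 9 of 30 windows of the amino acid supply and ATF4 pathway genes listed further on. The looser spelling TGATGNNA was in 6 of the 13, in none of the 15, and in 14.5% of all promoters. The 5 genes were Aars, Gars, Iars, Tars and Yars, none of which passed with edgeR (Aars did with DESeq2), and Eprs, which rose, had no match. Their windows are shown with the motif in capitals, beside that of Eprs and those of Asns and Slc7a11, a pair of amino acid supply genes that rose. The windows of Iars and Yars are short because the match lies at the start of transcription.
Aars (chr8:111033692-111033841, + strand): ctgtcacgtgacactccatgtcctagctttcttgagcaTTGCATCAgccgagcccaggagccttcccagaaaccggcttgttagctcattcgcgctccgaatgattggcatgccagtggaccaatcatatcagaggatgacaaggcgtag
Gars (chr6:55037901-55038000, + strand): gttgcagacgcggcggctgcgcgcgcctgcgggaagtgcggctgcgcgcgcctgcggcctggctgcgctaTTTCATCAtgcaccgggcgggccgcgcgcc
Tars (chr15:11399659-11399758, - strand): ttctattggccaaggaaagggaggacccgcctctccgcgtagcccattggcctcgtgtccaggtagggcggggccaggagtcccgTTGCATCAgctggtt
Iars (chr13:49682126-49682155, + strand): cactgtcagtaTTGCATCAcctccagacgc
Yars (chr4:129189895-129189924, + strand): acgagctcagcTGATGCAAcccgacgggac
Eprs (chr1:185362894-185363043, + strand): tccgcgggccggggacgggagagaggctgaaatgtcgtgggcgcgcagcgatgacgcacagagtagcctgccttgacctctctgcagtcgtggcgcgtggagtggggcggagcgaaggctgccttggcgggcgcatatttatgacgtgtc
Asns (chr6:7693210-7693309, - strand): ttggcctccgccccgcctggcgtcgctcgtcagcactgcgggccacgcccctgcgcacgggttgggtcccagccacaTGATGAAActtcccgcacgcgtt
Slc7a11 (chr3:50443614-50443713, - strand): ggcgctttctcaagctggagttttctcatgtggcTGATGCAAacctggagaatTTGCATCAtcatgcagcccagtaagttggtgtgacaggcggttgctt
In Aars the match starts 112 bases before the start site, in Gars 30 and in Tars 15. Aars has a second match 10 bases into the transcript, not printed here. Iars holds the same letters as Aars and Tars, TTGCATCA, yet was the cytosolic chain with the lowest fold change. A match is a description of these letters and not of binding.

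Mitochondrial synthetases charge the transfer RNAs that read the genome of the organelle, which encodes core subunits of the respiratory chain. Of the 16 enzymes 0 rose and 1 fell, Lars2, a share near the 5.7% of all genes that were lower. Without Lars2 the sum of the other 15 was 221, 233 and 231 CPM in vehicle and 235, 239 and 213 CPM in cuprizone. The sums overlapped and their means differed by 0.249%. DESeq2 and limma-voom likewise called 0 higher and Lars2 lower, and 0 of the other 15 had an unadjusted p under 0.05 with edgeR. Their log2 fold changes ran from -0.17 (Pars2, for proline) to 0.27 (Mars2, for methionine), with standard errors of 0.10 to 0.22. Cars2, for cysteine, had 0.25 ± 0.22, and Rars2, for arginine, had 0.20 ± 0.15 with every cuprizone library above vehicle. Wars2, Ears2, Fars2, Hars2 and Nars2 had 0.18, 0.10, 0.09, 0.07 and 0.05, and Tars2, Yars2, Vars2 and Iars2 had -0.0072, -0.02, -0.05 and -0.08. Iars2 shares 2034 exonic bases, 22.89% of its exon length, with Rab3gap2 on the opposite strand, a gene chosen after its values were seen. Sars2, for serine, had -0.16 ± 0.13 and was lower in all cuprizone libraries. Of the 16 enzymes 1 had non-overlapping groups with cuprizone higher and 3 with cuprizone lower, where 12.6% and 17.6% of all genes did. Aars2, for alanine, whose loss in humans causes a leukoencephalopathy, was at 18.4, 17.5 and 18.6 CPM in vehicle and 16.2, 17.2 and 15.5 CPM in cuprizone. It was lower in all 3 cuprizone libraries, but its log2 fold change of -0.15 ± 0.11 did not pass (edgeR adjusted p = 0.438). Ears2, for glutamate, another gene of white matter disease, was at 5.61 to 6.64 CPM in vehicle and 5.60 to 7.22 CPM in cuprizone. Rars2, Ears2 and Wars2 had 90 to 190 counts per library.

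Lars2, the mitochondrial leucyl-tRNA synthetase (ENSMUSG00000035202, chromosome 9, 123366927 to 123462666), had the highest level of the mitochondrial enzymes and the fold change of the largest size. It was at 215, 176 and 332 CPM in vehicle and 94.0, 89.2 and 136 CPM in cuprizone. The vehicle libraries were spread widely but did not overlap with cuprizone. The log2 fold change was -1.18 ± 0.28 (edgeR adjusted p = 0.0485). With any single library other than cuprizone replicate 32 left out the adjusted p was 0.0588 to 0.159, and it was 0.059 with upper-quartile scaling, where the background was 2.15% higher and 5.17% lower.

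Gm42418, a noncoding annotation that is known to collect reads of ribosomal RNA, ranked the libraries in the same order as Lars2 but for vehicle replicates 24 and 26. It was at 4383, 4938 and 7258 CPM in vehicle and 1857, 1445 and 2348 CPM in cuprizone, a log2 fold change of -1.55 ± 0.29 (edgeR adjusted p = 0.0222). Replicate 27 was the highest of the vehicle and replicate 32 of the cuprizone libraries for both genes. Per 1000 counts of Gm42418 there were 48.9, 35.7 and 45.7 counts of Lars2 in vehicle and 50.6, 61.7 and 58.1 in cuprizone, where Gm42418 had the larger fall. The 9 annotated Lars2 transcripts shared no stretch of 25 bases with Gm42418 or with the mitochondrial ribosomal RNAs mt-Rnr1 and mt-Rnr2 on either strand. Inexact matches, introns of Lars2 and other ribosomal RNA sequences were not searched, so the origin of the Lars2 reads cannot be read from this search. The mitochondrial ribosomal RNAs had log2 fold changes of -0.20 and -0.33 and did not pass. The part of ribosomal RNA reads in the fall of Lars2 was not tested, and Gm42418, mt-Rnr1 and mt-Rnr2 were chosen after their values were seen.

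**Figure D4:**
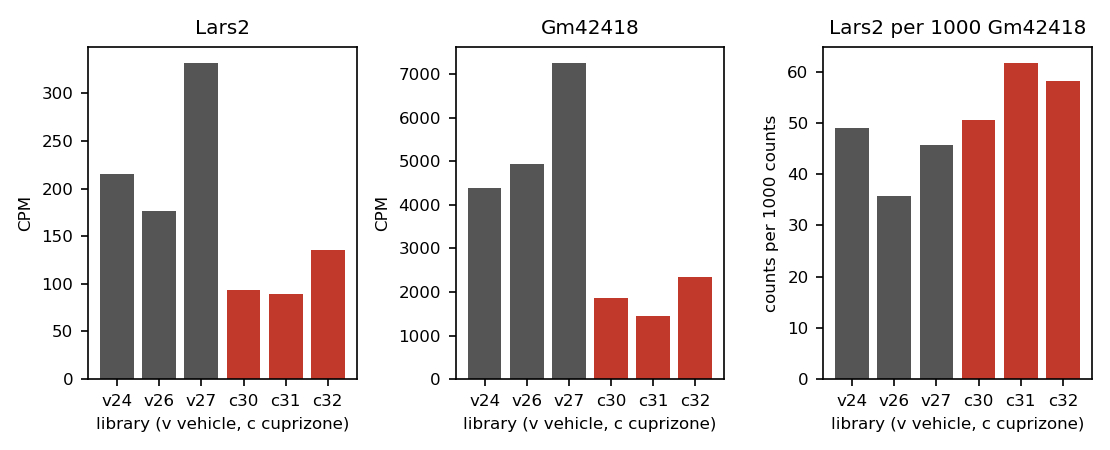
Lars2 (left) and Gm42418 (middle) in CPM, and counts of Lars2 per 1000 counts of Gm42418 (right), in each vehicle (grey) and cuprizone (red) library. Both genes are lower in all cuprizone libraries, while the ratio is 35.7 to 48.9 in vehicle and 50.6 to 61.7 in cuprizone.

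For 14 amino acids both a cytosolic and a mitochondrial chain were members, with Farsa taken for phenylalanine. The cytosolic fold change was the larger in 12 of these pairs and the smaller in 2, histidine and isoleucine, and the median difference was 0.34 on the log2 scale. Leucine had the widest gap, 1.96, with Lars at 0.78 and Lars2 at -1.18. Next came alanine with 0.49 and asparagine and valine with 0.48 each. For arginine and phenylalanine the gap was 0.06 and 0.07, within the errors of the single genes. The Hars and Hars2 genes start beside each other on opposite strands and share 195 exonic bases, and their log2 fold changes were -0.15 and 0.07. The differences were not tested over samples, and the pairs are not replicates.

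**Figure D5:**
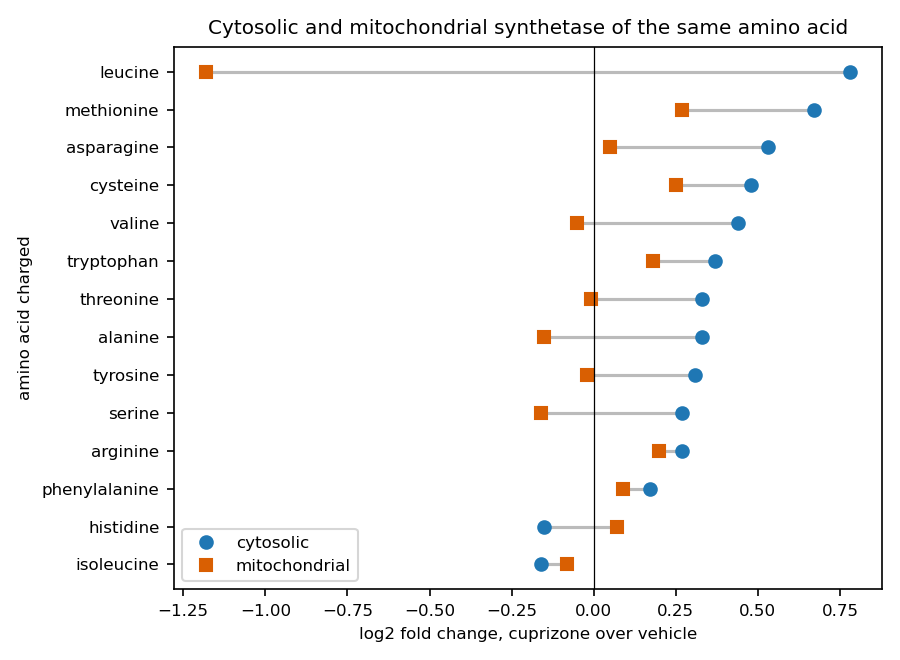
Log2 fold change of cuprizone over vehicle for the cytosolic (circle) and mitochondrial (square) synthetase of the same amino acid, for 14 amino acids. The circle is to the right of the square except for histidine and isoleucine, and the line is longest for leucine, from -1.18 to 0.78.

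The order of the levels in vehicle libraries was taken per kilobase of the longest principal coding transcript (CPM per kilobase). Wars was highest of the cytosolic chains at 62.2 ± 1.63 CPM per kilobase (SD, n = 3). Hars (39.4 ± 1.07), Sars (39.4 ± 0.317), Nars (39.1 ± 2.38), Kars (37.0 ± 1.95) and Gars (35.8 ± 1.91) followed. Genes next to each other in this run overlapped between vehicle libraries. Every vehicle library of Sars and Hars lay above every one of Gars, and those of Sars also above those of Kars. Tars (6.95 ± 0.594) and Cars (6.03 ± 0.355) were lowest. In cuprizone Nars stood at 56.4 ± 1.85 CPM per kilobase and Eprs went from 23.3 ± 2.81 to 42.6 ± 7.07, which put Eprs level with Gars (42.6 ± 2.68) and Aars (42.5 ± 3.44). Mitochondrial enzymes ran from 0.846 ± 0.174 for Mars2 to 13.8 ± 0.825 for Fars2 in vehicle, apart from Lars2 at 61.8 ± 20.8 CPM per kilobase. The low place of Mars2 rests on its transcript length of 11294 bases. Before division by length its vehicle mean of 9.56 CPM was above that of Rars2 (5.62 CPM). The range of the mitochondrial enzymes overlapped with that of the cytosolic chains. The mean of Fars2 was above those of Qars (13.0 ± 0.236), Lars (8.40 ± 0.0348) and the other chains at the low end. Single vehicle libraries of Fars2 (13.0 to 14.7 CPM per kilobase) and Qars (12.8 to 13.3) overlapped.

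Other genes of transfer RNA charging behaved unevenly. Of 14 such genes outside the members 1 rose, Xpot, the exportin that carries transfer RNA out of the nucleus, and 0 fell (also 1 and 0 with DESeq2 and limma-voom). Over all genes edgeR called 1.87% higher and 5.7% lower, DESeq2 5.2% and 8.45%, and limma-voom 1.77% and 5.87%. Xpot was at 46.4, 57.0 and 51.6 CPM in vehicle and 102, 93.5 and 69.4 CPM in cuprizone (log2 fold change 0.78 ± 0.17, edgeR adjusted p = 0.0369). The groups did not overlap, and Xpot did not pass when any library other than cuprizone replicate 32 was left out. Tarsl2, a second threonyl-tRNA synthetase of the cytosol, and Sepsecs, which completes selenocysteine on its transfer RNA, had -0.42 ± 0.13 and -0.46 ± 0.19 (adjusted p = 0.0983 and 0.195). Eef1e1, a further subunit of the synthetase complex, had 0.14 ± 0.13. The other 10 genes of this list lay between -0.26 and 0.35.

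Of 9 cytosolic elongation factors 1 rose (background 1.87%), Eef2k, the kinase that slows elongation by phosphorylating eEF2 (0.42 ± 0.10, edgeR adjusted p = 0.0455). Eef2k did not pass with any library other than cuprizone replicate 32 left out, nor with no filter on low counts. Eef1a1, which carries charged transfer RNA to the ribosome, had 0.29 ± 0.20 and Eif5a2 -0.27 ± 0.16. Of 11 mitochondrial translation factors 0 passed with any of the 3 tools. With edgeR 1 was lower at an unadjusted p under 0.05, as were 12.8% of all genes. Mtif3, an initiation factor, had -0.35 ± 0.13, and Gfm2 and Mrrf, both of ribosome recycling, had 0.69 ± 0.30 and -0.27 ± 0.12. The median was 0.07 for the elongation factors and -0.01 for the mitochondrial factors. Of 14 amino acid sensing genes 1 rose, Rragd, a Rag GTPase that relays amino acid supply to mTORC1 (0.54 ± 0.11, edgeR adjusted p = 0.0288), and 0 fell (DESeq2 called 2 higher and 1 lower). The background was 1.87% higher and 5.7% lower with edgeR, and 5.2% and 8.45% with DESeq2. Rragd did not pass without vehicle replicate 24, 26 or 27 or without cuprizone replicate 30. Castor1, an arginine sensor, had 0.99 ± 0.26 and Depdc5, of the complex that restrains mTORC1, -0.43 ± 0.10 (adjusted p = 0.0683 and 0.0542).

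Of 29 genes of amino acid supply and the ATF4 pathway 17 rose and 1 fell, where 1.87% of all genes were higher and 5.7% lower. Their median change was 1.06 on the log2 scale and that of the 38 members 0.13, and the difference was not tested. The 17 became 11 without vehicle replicate 24 or cuprizone replicate 31, 10 without vehicle replicate 26 or cuprizone replicate 30, and 8 without vehicle replicate 27. The direction of this list was known from earlier results on these libraries and is not independent evidence. Slc7a5, the large neutral amino acid transporter that imports leucine, went from 77.2 to 84.6 CPM in vehicle to 257 to 494 CPM in cuprizone (2.26 ± 0.25, edgeR adjusted p = 0.00305). Aldh18a1, of proline synthesis, had 1.72 ± 0.12, and Atf5, a stress-induced transcription factor, 3.11 ± 0.22. The other genes that rose were Nupr1, Trib3, Sesn2, Eif4ebp1, Slc7a1, Slc3a2, Chac1, Pycr1, Ddit3, Atf3, Slc7a11, Slc1a5 and Mthfd2, by 0.86 to 4.94 on the log2 scale. Asns, which makes asparagine, had 1.44 ± 0.17, against 0.53 for Nars, which charges it. Atf4 itself, whose activity is set largely by translation, was at 111 to 117 CPM in vehicle and 136 to 175 CPM in cuprizone (0.41 ± 0.13, adjusted p = 0.114). Lower levels were found in the list as well. Slc6a9, a glycine transporter, fell by 1.42 on the log2 scale (adjusted p = 0.0145, up to 0.0637 without vehicle replicate 24 or 26). Vldlr, Ddit4, Slc38a2, Psat1 and Phgdh, named after their values were seen, had log2 fold changes of -0.87, -0.56, -0.66, -0.46 and -0.33, with every cuprizone library below vehicle. Their unadjusted p was under 0.05 and their edgeR adjusted p was 0.0837 to 0.201. Of the 29 genes 20 had non-overlapping groups with cuprizone higher and 6 with cuprizone lower, where 12.6% and 17.6% of all genes did.

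Markers of other cells differed between libraries and, for some cell types, in the direction of their change. The median log2 fold change was 0.83 for 14 microglia and macrophage markers, of which 12 were positive. It was 0.07 for 8 astrocyte markers (4 positive), 0.25 for 8 neuron markers (7) and 1.26 for 8 endothelial and mural markers (8). Over all genes 52.6% had a positive fold change. The sum of 14 microglia and macrophage markers was 2891, 1579 and 1439 CPM in vehicle and 2204, 2838 and 5251 CPM in cuprizone, highest in replicate 32. Among the cuprizone libraries 9 of the 20 cytosolic chains had their lowest level in replicate 32, 10 in replicate 30 and 1 in replicate 31. Sums of 8 astrocyte markers were 21908 to 24687 CPM in vehicle and 15543 to 29955 CPM in cuprizone. Sums of 8 neuron markers were 1516 to 2445 CPM and 1789 to 3399 CPM, and those of 8 endothelial and mural markers 52.9 to 60.5 CPM and 60.7 to 153 CPM. Each of these marker genes had counts in at least 1 library. With edgeR and limma-voom 0 of the 30 microglia, astrocyte and neuron markers passed, although 3 had an unadjusted p under 0.05 with edgeR and DESeq2 called 2 higher. Of the 8 endothelial and mural markers 0 passed with edgeR or limma-voom, 2 were higher with DESeq2, and 4 had an unadjusted p under 0.05 with edgeR. Over all genes DESeq2 called 5.2% higher, and 10.5% were higher at an unadjusted p under 0.05 with edgeR. Without cuprizone replicate 32 the count of members called was 4 higher and 1 lower, with Mars1 in place of Cars. The part of other cells in the levels of the synthetases was not tested.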

How the data were processed

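RNA bound to HA-tagged ribosomes of mouse corpus callosum was measured in 3 vehicle and 3 cuprizone libraries. The authors deposited raw counts per Ensembl gene. The submitters' processing notes name the build mm10 and bcl2fastq 2.17. Aligner, counter, annotation and strand use are not given in these sources. Each column was matched to a sample by its title. Nothing in the labels says how many animals gave a library, so p-values measure the spread between these libraries.

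Symbols, places and transcript lengths came from GENCODE M21 (GRCm38, the same assembly as mm10), which matched 37693 of 39017 identifiers. Coordinates are 1-based. Tests were made with edgeR 4.0.16 (R 4.3.3). The default filterByExpr (minimum count 10, minimum total 15) left 16569 genes, and TMM scaling, robust glmQLFit and glmQLFTest (2-sided) were used, with Benjamini-Hochberg adjustment and a threshold of 0.05. Standard errors are the log2 fold change over the square root of F, and CPM use TMM-scaled library sizes. With 3 libraries against 3 no permutation test can go below 0.1, so none was made. Counts were also simulated from the means of these genes, and 16388 genes then passed the filter. Of genes changed by 1 on the log2 scale 40% were recovered and of those changed by 2 94%, with 80% at -2 and 26% at -1. Of the genes called in the simulation 6.25% were false. Alternatives were RLE, upper-quartile and myelin-free TMM scaling, other filters, DESeq2 1.42.0, limma-voom (limma 3.58.1) and each library left out. The members and lists were chosen with earlier results of these data known. The text names all members, from each other gene list the 3 with the smallest adjusted p and any past the threshold, and Atf4, Eef1e1, Rpl22, Olig1 and Mbp; other genes are said to be chosen after their values were seen.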

Additional observations from a re-analysis of the deposited data

How the results depend on the processing

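With a single library left out, the number of members called higher ran from 0 to 4 and of those lower from 0 to 1, with the same ranges for cytosolic chains higher and mitochondrial enzymes lower. The cytosolic median then ran from 0.26 to 0.31. Over all genes 65 to 464 were higher and 474 to 963 lower. DESeq2 called 9 members higher, all of them cytosolic, and 1 lower, Lars2. Over all genes it called 862 higher and 1400 lower. Upper-quartile scaling called 0 members lower, so 0 mitochondrial enzymes, and gave medians of 0.19 for all members, 0.35 for the cytosolic chains and 0.08 for the mitochondrial enzymes, with a median of 0.08 over all genes. The cause of these shifts was not tested, and the fits that leave out a library also had fewer samples. Of the 38 members 8 changed sign in at least 1 of 13 alternatives, all with a log2 fold change of at most 0.09 in size. Farsb had 0.0057 with RLE, 0.05 with upper-quartile scaling, 0.0086 with no filter, 1.4e-05 with the CPM filter and 0.0055 with DESeq2. Tars2 had 0.0035 with RLE and with DESeq2, 0.05 with upper-quartile scaling and 0.0059 with no filter. With upper-quartile scaling Vars2 had 0.0097 and Yars2 0.03. With a library left out the ranges were -0.04 to 0.05 for Farsb, -0.02 to 0.13 for Aimp1, -0.01 to 0.17 for Fars2, -0.15 to 0.03 for Iars2, -0.0094 to 0.13 for Nars2, -0.04 to 0.03 for Tars2 and -0.15 to 0.06 for Yars2. No paired analysis was possible because the groups share no replicate number.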
